A study of Mus musculus with 9 samples.

Results

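The 291 olfactory receptor genes of mouse chromosome 2 were followed through 3 cell populations of the olfactory lineage. Members were all genes whose symbol begins with Olfr and whose deposited position lies on chromosome 2, which gave 291 of the 1122 olfactory receptor genes and of the 21909 gene symbols in the tables. Chromosome 2 thus held 25.9% of the receptor genes, more than chromosome 7 with 236 and chromosome 9 with 138. No expression value entered this rule, but the rule was chosen with earlier results of these data known. The 291 genes took 292 rows, since Olfr1506 was listed in 2 rows with identical values, which were added up.

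The main olfactory epithelium was taken from mice at 4 weeks of age, and each sorted population gave 1 library of poly-A RNA. The HBC library (horizontal basal cells, a reserve stem cell layer) came from cells positive for a PE-coupled antibody to CD54. The GBC library (globose basal cells) came from cells positive for Neurog1-EGFP, a green fluorescent reporter of a proneural gene, and the mOSN library (mature olfactory sensory neurons) from cells positive for OMP-ires-EGFP, a reporter of the olfactory marker protein gene. Strain, sex and the number of animals per sort are not stated in the labels, and an antibody or reporter defines each population only as well as it marks it. The HBC library was made with ScriptSeq and the other libraries with the Illumina mRNA kit, so population and kit cannot be told apart wherever HBC is compared. With no replicate in any group, no difference below has a replicate check or a p-value.

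Olfactory receptors are G protein-coupled receptors on the cilia of sensory neurons, where they couple through an olfactory G protein and adenylyl cyclase to cyclic nucleotide-gated channels. Their genes lie in clusters, and each mature neuron expresses a single allele of a single receptor gene, so that the RNA of a pooled neuron sample adds up many cells that each use a different receptor. The receptors of chromosome 2 are class II receptors, the class that makes up most of the repertoire of land vertebrates. Receptor genes carry their coding sequence in a single exon, and near relatives lie side by side in the genome. The MOR names (mouse olfactory receptor) group receptors into families by the similarity of their sequence.

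The labels were checked against defining genes first. Icam1, which encodes CD54, was at 136 FPKM in HBC against 0.0456 in GBC and 0.349 in mOSN. FPKM are fragments scaled to transcript length and to the mapped fragments of the library, so levels are per length and can be compared between genes. Neurog1 was at 163 FPKM in GBC, 0.0542 in HBC and 0.0189 in mOSN, and Omp was at 1487 FPKM in mOSN against 427 in GBC and 71.6 in HBC. Markers of mature neurons (8 genes) exceeded their GBC level at least 2-fold in mOSN in all 8 cases. Their summed level in GBC was 12.2% of that in mOSN, and in HBC 1.55%. The HBC library also carried all 6 macrophage markers, with a summed level of 2776 FPKM against 4.34 in GBC and 3.25 in mOSN, and all 5 sustentacular markers, with 1778 FPKM against 36.8 and 139. Between 16516700 (mOSN) and 18123443 (HBC) implied fragments stood behind each library.

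Receptor RNA was lowest in HBC, higher in GBC and highest in mOSN. Summed over the 291 genes, the level was 15.2 FPKM for HBC, 257.9 FPKM for GBC and 1525 FPKM for mOSN, which is 5.91 times as much in mOSN as in GBC and 17.0 times as much in GBC as in HBC. Counted in fragments, the sums were 598 for HBC, 3146 for GBC and 23307 for mOSN, with ratios of 7.41 and 5.26. The ratios differ because the fragments behind 1 FPKM of the same member differed between libraries, with a median of 1.31 times as many in mOSN as in GBC over 225 members and 3.73 times as many in HBC as in GBC over 65 members. Over all genes those medians were 0.727 and 1.14, and how the authors' software set this conversion was not tested. With 1 conversion factor per gene the sum in HBC was 39.3 FPKM. In such bulk samples, fewer cells with a receptor and less receptor RNA per cell cannot be told apart.

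Most members were detected in neurons at low levels. In mOSN, the lowest member was listed at 0, the median was 3.65 FPKM and the highest was 31.2 FPKM, and the quartiles were 1.73 and 7.13. Altogether 243 members (83.5%) reached 1 FPKM in mOSN, 115 reached 5, 39 reached 10 and 9 reached 20, while 6 were listed at 0. In GBC, the median was 0.629 FPKM and the highest was 7.71, and 91 members (31.3%) reached 1 FPKM, 2 reached 5 and 5 were listed at 0. In HBC, the median was 0 and the highest was 0.629 FPKM, so that no member reached 1 FPKM and 183 were listed at 0. The neuronal signal was spread over many genes, since the 29 highest members held 33.5% of the summed mOSN level and 55 members were needed for 50% of it.

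The 9 members above 20 FPKM in mOSN were Olfr1264, Olfr140, Olfr1226, Olfr1222, Olfr1301, Olfr1176, Olfr1240, Olfr1297 and Olfr1247. Olfr1264 (chr2:89861295-89862221, build mm9) was at 31.2 FPKM in mOSN against 7.71 in GBC and 0.228 in HBC, with a deposited interval of 28.5 to 34.0 in mOSN. Olfr140, the next gene but 1 (chr2:89891571-89892479), was at 27.2 FPKM in mOSN against 5.52 in GBC and 0.482 in HBC. These were the highest members in both mOSN and GBC, and the only ones to reach 5 FPKM in GBC. Olfr1226 was at 23.4 FPKM in mOSN against 1.63 in GBC and 0.219 in HBC. Olfr1222 was at 22.7 FPKM in mOSN against 1.46 in GBC and 0.181 in HBC. These receptors are both of family MOR233, and their GBC level lay well under that of Olfr1264 and Olfr140 although the mOSN levels were close. Olfr1301, the highest member outside the large middle cluster, was at 22.2 FPKM in mOSN against 2.18 in GBC and 0.310 in HBC. Among all 1122 receptor genes, Olfr1264 stood at rank 8 in mOSN, and 16 of the 50 highest receptor genes lay on chromosome 2.

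By position, the members fell into 3 clusters, split wherever neighbours were at least 1 Mb apart. Cluster 1 ran from Olfr338 to Olfr368 (chr2:36232298-37188252) with 28 genes. Cluster 2 ran from Olfr987 to Olfr1274-ps (chr2:85171124-90241831) with 226 genes, and cluster 3 from Olfr1275 to Olfr1318 (chr2:111071010-111997164) with 37 genes. Stretches of 48.0 and 20.8 Mb without a member separated them, against a median gap of 18.1 kb between neighbouring members. Cluster 2 held 77.7% of the members and 82.6% of their summed mOSN level.

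Median mOSN levels were 2.92 FPKM in cluster 1, 4.23 in cluster 2 and 2.56 in cluster 3, and the median GBC levels were 0.662, 0.637 and 0.574 FPKM. The clusters overlapped widely, with mOSN quartiles of 1.66 and 5.42 FPKM in cluster 1, 1.81 and 7.44 in cluster 2, and 1.83 and 4.03 in cluster 3. All 3 clusters were thus expressed in neurons. The top member of cluster 1 was Olfr365, at 13.8 FPKM in mOSN against 1.75 in GBC and 0.307 in HBC, followed by Olfr360 at 8.51 FPKM and Olfr368 at 7.70 FPKM in mOSN. In cluster 3, Olfr1301 was followed by Olfr1297 at 21.1 FPKM in mOSN and 2.14 FPKM in GBC, listed at 0 in HBC.

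**Figure D1:**
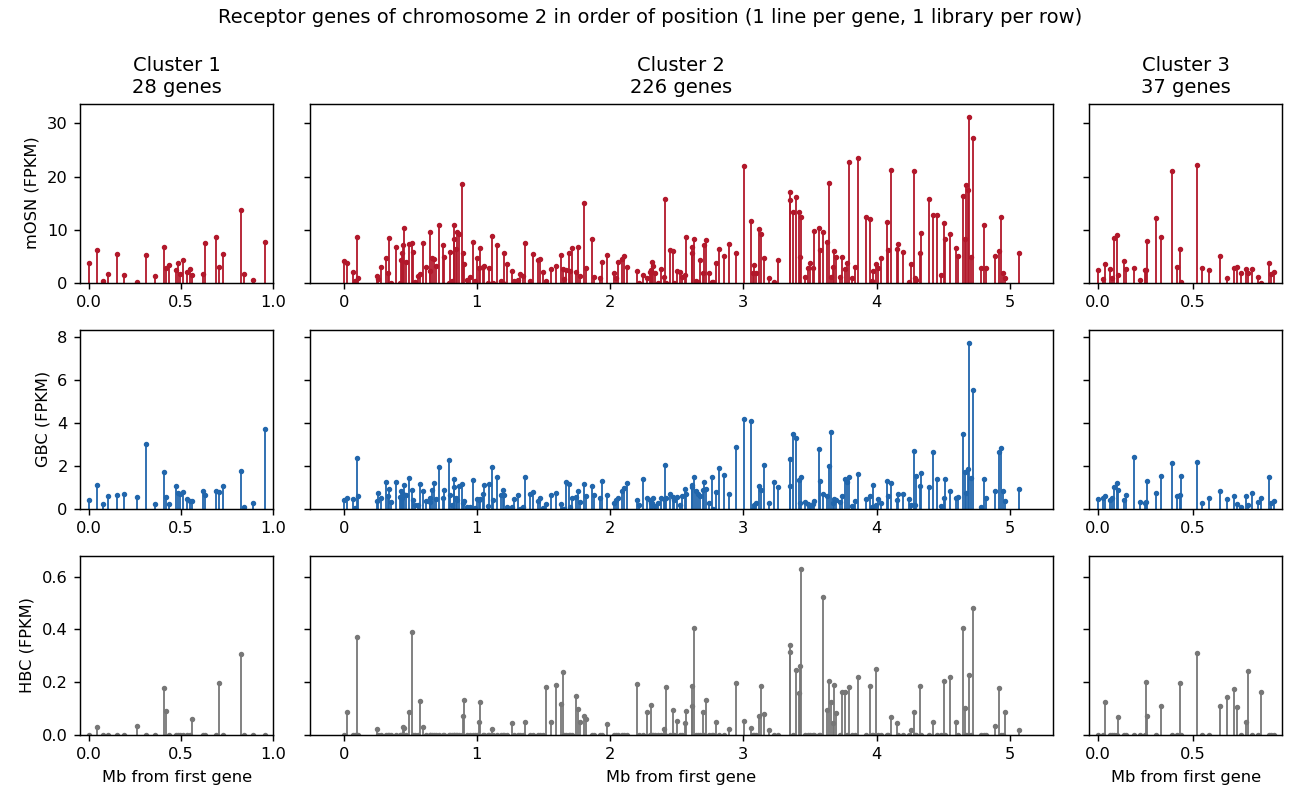
FPKM of each of the 291 genes in mOSN (top row), GBC (middle row) and HBC (bottom row) against the distance in Mb from the first gene of clusters 1, 2 and 3 (columns), with 1 line and point per gene. Nearly every gene has a visible mOSN level, and the tallest mOSN lines stand in the last 2 Mb of cluster 2, where Olfr1264 reaches 31.2 FPKM.

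Within cluster 2 the level in neurons varied along the chromosome. In successive windows of 0.5 Mb from the first gene, the median mOSN level was 3.92, 5.27, 2.82, 2.63, 2.19, 3.93, 6.99, 4.80, 6.10 and 8.25 FPKM, with 19 to 30 genes per window. The last 4 of these windows held 3 of the 4 highest medians. The 85 genes that began 3 Mb or more from the first gene, a boundary chosen after the values were seen, had a median mOSN level of 6.06 FPKM and a median GBC level of 0.839, and the 141 genes before it had 3.08 and 0.600. That distal stretch held 29.2% of all members, 46.1% of their summed mOSN level and 29 of the 39 members at or above 10 FPKM. It also held all 25 members of the families MOR225 and MOR231, and without them its remaining 60 genes had a median of 4.94 FPKM. No test of this difference was made, since neighbouring receptors share families and a library.

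Other genes inside or beside the clusters followed several patterns. The gene 4833423E24Rik, which lies inside cluster 2 (chr2:85324249-85359092), was at 10.7 FPKM in HBC but 0.191 in GBC and listed at 0 in mOSN, the opposite order to the receptors around it. Pramel7 and Pramel6, also inside cluster 2, were at or under 0.121 FPKM in every library. Lpcat4, a lysophospholipid acyltransferase gene 82.8 kb beyond cluster 3, was at 119 FPKM in mOSN against 23.4 in GBC and 5.66 in HBC, the same order as the receptors. Ptgs1, which encodes cyclooxygenase 1 and lies before cluster 1, was at 20.4 FPKM in HBC against 0.0881 in GBC and 0.0592 in mOSN.

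Neurons were compared with neurogenic precursors next. Genes of at least 1 FPKM in at least 1 of the compared libraries are called measured, and ratios were taken as log2 after adding 1 FPKM to both values, which makes the ratio of a low gene too small. On that scale 205 of 249 measured members (82.3%) were at least 2-fold higher in mOSN than in GBC, where the background was 22.4% of the 12551 genes measured. In the other direction 5 members (2.01%) were at least 2-fold lower, where the background was 10.3%. The median log2 ratio was 1.68 over the measured members, 1.36 over 712 measured receptor genes of other chromosomes, of which 501 (70.4%) were at least 2-fold higher, and 0.24 over all genes. Of the 249 members, 243 were measured through mOSN, so this filter favoured that library, and the other 42 members did not reach 1 FPKM in either. With a pseudocount of 5 FPKM, 75 of the 249 members were at least 2-fold higher and 0 lower. With a filter at 5 FPKM, 111 of the 115 members left were at least 2-fold higher and 0 lower. The background over all genes under these settings is not given here. Among the 91 members that reached 1 FPKM in GBC, 69 (75.8%) exceeded their GBC level 2-fold or more in mOSN and 5 (5.49%) were 2-fold or more below it, against backgrounds of 18.5% and 11.4% of 11395 genes.

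A stricter call of a 4-fold difference and at least 5 FPKM was met by 73 members (29.3%), where the background was 4.92%. That number was 47 after scaling to a common sum and 4 with a pseudocount of 5 FPKM. The deposited intervals, which cover counting error only, lay apart for 221 members (88.8%) with the higher value in mOSN, where the background was 49.6%, and for 5 with the lower value there, where it was 30.3%. Across the 291 members, Spearman's rho between the mOSN and GBC levels was 0.577, as a description over genes that share their annotation and length in both libraries. Members with high levels in neurons thus tended to be the higher ones in the GBC sort, with wide scatter.

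**Figure D2:**
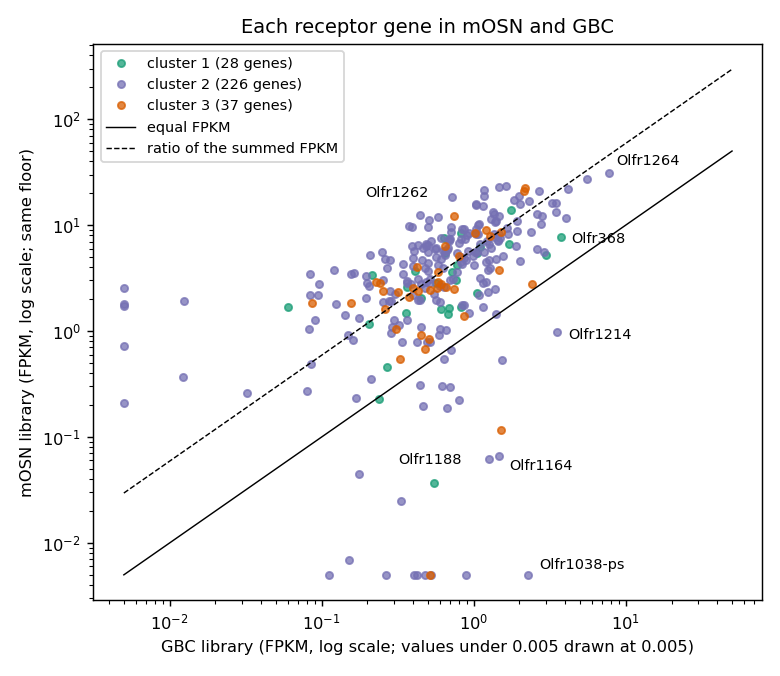
FPKM of each member in GBC (horizontal, log scale) and mOSN (vertical, log scale), coloured by cluster, with values under 0.005 FPKM drawn at 0.005. The solid line marks equal FPKM and the dashed line the ratio of the sums, 5.91. Most points lie above the solid line, and Olfr1214, Olfr1038-ps, Olfr1164 and Olfr1188 lie below it.

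The size of the step from GBC to mOSN differed between members. Olfr1262, of family MOR234, was at 18.4 FPKM in mOSN and 0.719 FPKM in GBC, and was listed at 0 in HBC, the largest log2 ratio at 3.50. Olfr1240 was at 21.3 FPKM in mOSN against 1.18 in GBC and 0.0668 in HBC, a log2 ratio of 3.36. Olfr1222, Olfr1226 and Olfr1228 of family MOR233 came next, with log2 ratios of 3.27, 3.21 and 3.21. At the other end, among members of at least 5 FPKM, Olfr346 of cluster 1 was at 5.28 FPKM in mOSN and 3.01 FPKM in GBC, and was listed at 0 in HBC, a log2 ratio of 0.65. Olfr1173 was at 5.56 FPKM in mOSN against 2.88 in GBC and 0.198 in HBC, a log2 ratio of 0.76. Olfr368, the last gene of cluster 1, was at 7.70 FPKM in mOSN against 3.72 in GBC, listed at 0 in HBC, a log2 ratio of 0.88. The deposited intervals of mOSN and GBC did not overlap for any of these genes, from Olfr346 with 2.08 to 3.94 FPKM in GBC and 4.11 to 6.45 in mOSN to Olfr1262 with 0.240 to 1.20 and 16.2 to 20.6.

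Of all 291 members, 27 had more FPKM in GBC than in mOSN, and 5 of them were the members at least 2-fold lower in mOSN. Olfr1214, of family MOR233, was at 0.978 FPKM in mOSN against 3.55 in GBC and 0.124 in HBC. The pseudogene Olfr1038-ps was listed at 0 in HBC and mOSN and was at 2.28 FPKM in GBC, from 42 implied fragments. Olfr1164, of family MOR174, was at 0.0667 FPKM in mOSN and 1.46 FPKM in GBC, and was listed at 0 in HBC. Most other members of cluster 2 were higher in mOSN. Olfr1188 was at 0.0623 FPKM in mOSN and 1.25 FPKM in GBC, and was listed at 0 in HBC. The pseudogene Olfr1300-ps1 of cluster 3 was at 0.115 FPKM in mOSN and 1.51 FPKM in GBC, and was listed at 0 in HBC, with 35 implied fragments in GBC over an annotated span of 25883 bases. For all 5 the deposited intervals of GBC and mOSN did not overlap. The 9 members whose symbol marks a pseudogene had a median mOSN level of 0.462 FPKM and a median GBC level of 0.890, and the other 282 had medians of 3.70 and 0.621.

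To set the members side by side by fragments instead of FPKM, the share of each gene's implied fragments that came from GBC was taken over the sum of GBC and mOSN. Over all members pooled this share was 11.9%, from 3146 implied fragments in GBC and 23307 in mOSN. Receptor genes of other chromosomes held 18304 in GBC and 77004 in mOSN, a larger part in GBC. Over all genes the numbers were 18087564 and 16516700. Above or below the pooled share thus means against the members' own pool only. Counts of this kind over other receptors or all genes are not given here. With 95% exact (Clopper-Pearson) intervals, which cover counting error only, 60 members lay above the pooled share, 43 below and 188 held it within their interval. The share was 17.9% (16.2 to 19.6) in cluster 1, 11.3% (10.9 to 11.7) in cluster 2 and 12.1% (10.8 to 13.4) in cluster 3. These intervals pool the fragments of all genes in a cluster and do not cover the spread between genes. Of the 362 implied GBC fragments in cluster 1, 82.0 came from Olfr368 and 42.1 from Olfr346. In cluster 1, 10 of 28 members lay above the pooled share and 0 below, whereas cluster 2 had 44 above and 40 below among 226. Cluster 1 also had the smallest ratio of summed FPKM between mOSN and GBC, 4.36 against 6.12 in cluster 2 and 5.72 in cluster 3. Markers of mature neurons were in GBC at 12.2% of their mOSN level, Omp at 28.7% and the members at 16.9% on the FPKM scale, and what part mature neurons within the GBC sort had in the receptor signal was not tested.

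**Figure D3:**
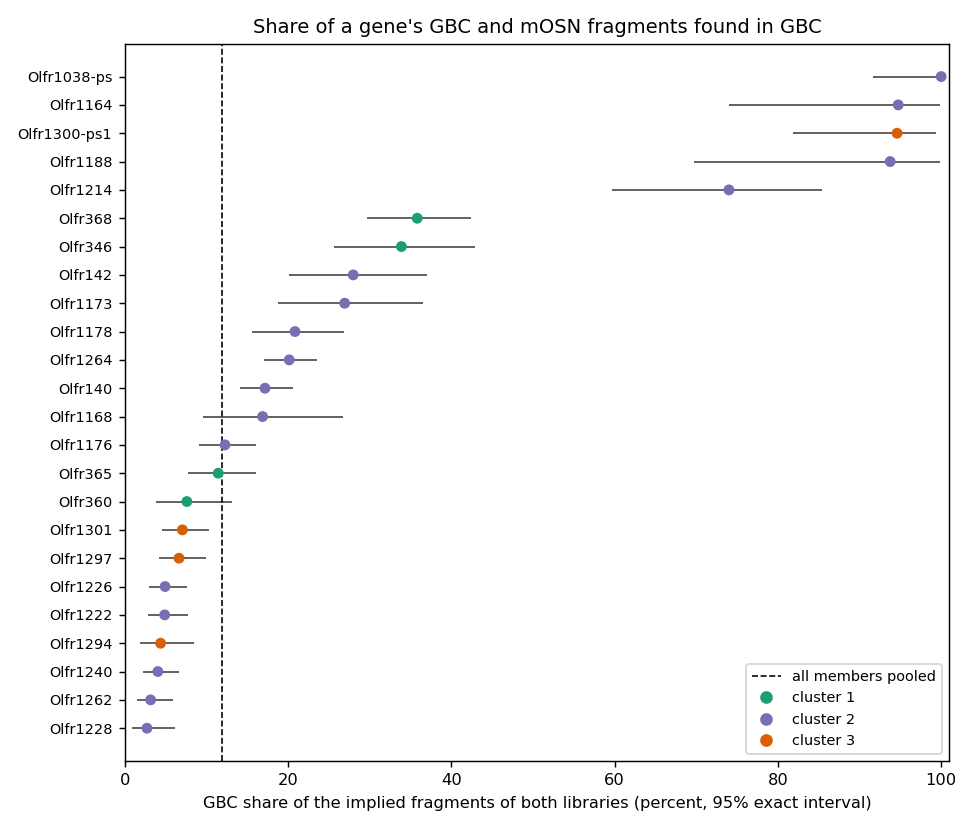
Share of a gene's implied GBC and mOSN fragments that came from GBC, in percent, for the 24 members named for the highest levels, the largest and smallest ratios or a higher level in GBC, with 95% exact intervals as lines and the cluster as colour. The dashed line is the pooled share of 11.9%, and the points run from 2.70% for Olfr1228 to 100% for Olfr1038-ps.

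By sequence family, 273 members carried a MOR family name among the RefSeq synonyms, in 53 families, while 18 carried none. Of these families, 20 had at least 5 members here. The highest family medians in mOSN were 10.4 FPKM in MOR225 (11 genes), 8.35 in MOR231 (14 genes) and 6.60 in MOR172 (6 genes), all in cluster 2. The lowest were 0.490 FPKM in MOR187 (5 genes), 1.88 in MOR177 (12 genes) and 1.92 in MOR179 (7 genes), which lie in cluster 2 as well. Family members ranged widely around these medians, from 1.81 to 16.2 FPKM in MOR225 and from 0.535 to 21.3 FPKM in MOR231. In cluster 3 the 16 genes of MOR248 had a median of 5.18 FPKM and the 21 genes of MOR245 a median of 2.39 FPKM. The families thus differed in their middle but overlapped in their range.

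**Figure D4:**
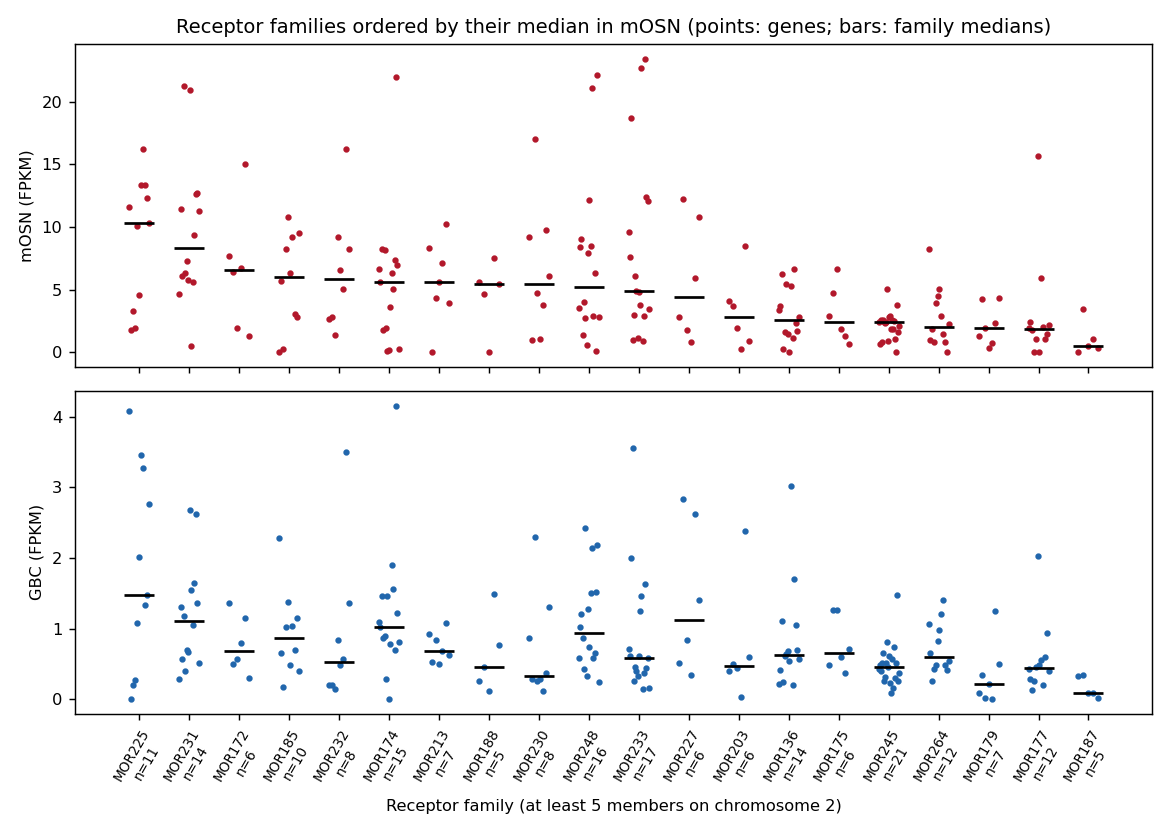
FPKM in mOSN (top) and GBC (bottom) of the members of the 20 families with at least 5 genes on chromosome 2, ordered by their median in mOSN, with 1 point per gene and bars for family medians. The medians run from 10.4 FPKM in MOR225 to 0.490 FPKM in MOR187, and the points of neighbouring families overlap.

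The family MOR233 held a contrast between near relatives. Its 17 genes run from Olfr1211 to Olfr1232 in cluster 2. Of these, 9 lay below the pooled share and 1, Olfr1214, above it. Olfr1214 was set apart after its share was seen, so that 0 of the other 16 lay above follows from this choice. The GBC share of those 16 was between 2.70% and 19.7%. How reads that fit several of these relatives were assigned is not stated. Olfr1214 had a GBC share of 74.0% (59.7 to 85.4). Its neighbour Olfr1213 was at 18.7 FPKM in mOSN against 1.99 in GBC and 0.206 in HBC, a GBC share of 6.51%. The other direction was seen in MOR136, the family of 14 genes that opens cluster 1. There 7 genes lay above the pooled share and 0 below, and the family's own share was 19.7% (17.0 to 22.7). In MOR227, of 6 genes, the share was 17.7% (14.7 to 20.9), with 3 genes above and 0 below. Both families were set against the members' own pool only, and receptors of other chromosomes also had a larger GBC part than that pool. The family intervals pool fragments over genes as well, and Olfr346 gave 42.1 of the 154 implied GBC fragments of MOR136.

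MOR174 holds the eugenol receptor Olfr73 and its relative Olfr74, both chosen for mention after their values were seen. Olfr73 was at 1.22 FPKM in GBC and 7.00 in mOSN. Olfr74 was at 0.803 FPKM in GBC and 0.225 in mOSN, with intervals that overlapped. The family also holds Olfr1176, at 22.0 FPKM in mOSN against 4.16 in GBC and 0.0538 in HBC. The 15 genes of this family therefore spanned 0.0667 to 22.0 FPKM in neurons. How reads that fit several close relatives were assigned is not stated, so values of near-identical copies are uncertain. Among members with at most 100 implied fragments, 41.1% of 202 in mOSN, 50.5% of 285 in GBC and 92.6% of 108 in HBC came out within 0.03 of a whole number. The cause of the numbers that were not whole was not tested.

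Against HBC, receptor RNA was higher in neurons for every measured member. All 243 measured members were at least 2-fold higher in mOSN than in HBC, where the background was 40.4% of 14092 genes. In the other direction 0 were lower, where the background was 23.0%. All 243 passed through mOSN, and no member reached 1 FPKM in HBC, so the count rests on that filter, and it was 114 with a pseudocount of 5 FPKM. This comparison shares the mOSN library with the one before, and the next shares GBC and HBC with both. Between GBC and HBC, 83 of 91 measured members (91.2%) were at least 2-fold higher in GBC and 0 lower, where the background was 34.6% and 23.4% of 13736 genes. Only 2 of these reached 5 FPKM in GBC, and with a pseudocount of 5 FPKM 1 member was at least 2-fold higher. The largest GBC differences were those of Olfr1264, Olfr1178, Olfr1176, Olfr368 and Olfr1196. Olfr1178 was at 11.6 FPKM in mOSN against 4.08 in GBC and 0.0254 in HBC.

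A low receptor signal was present in HBC for 108 members. Listed at 0 there were 183 of 291 members, 514 of 831 receptor genes of other chromosomes and 4609 of all 21909 genes. At least 0.1 FPKM was reached by 19.6%, 21.2% and 69.8% of these sets, so the members stood near the other receptors. The highest member was Olfr1200 at 0.629 FPKM, from 26.6 implied fragments, with 1.47 FPKM in GBC and 12.3 in mOSN. Olfr1211 followed at 0.523 FPKM, from 19 implied fragments, and Olfr140 at 0.482 FPKM, from 14. All 3 are receptors at 9.58 FPKM or more in neurons. A value above 0 in HBC was listed for 24 of the 39 members at or above 10 FPKM in mOSN (61.5%) and for 84 of the other 252 (33.3%). The same split over other receptors or all genes is not given here. The summed member level in HBC was 0.995% of that in mOSN, while mature neuron markers stood at 1.55% and Omp at 4.82%. What part neurons or their RNA in the HBC sort had in this signal was not tested.

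The upstream sequences of some members were read from a RefSeq table of build GRCm38.p6, matched by symbol. That build differs from the mm9 positions of the expression files, so the coordinates of the windows are those of GRCm38.p6 only. A window was found for 239 members, but for most of them the annotated start is the start codon itself. The 58 members (60 windows) whose annotated start lies elsewhere were used, with 250 bases upstream of the start. Whether transcription begins at these annotated starts was not tested, so a window need not be a promoter. Motifs searched on both strands, overlaps allowed, were CCCNNGGG (the core bound by Ebf factors), TAATTA and TAATGA (cores bound by homeodomain factors such as Lhx2 and Emx2) and TATAAA (the TATA box). TAATGA reads TCATTA and TATAAA reads TTTATA on the opposite strand.

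The 3 members with the highest mOSN level among those with such a window are shown first, 5′ to 3′ on the gene's strand, with motif letters in capitals. They lie at chr2:89440344-89440593 on the minus strand for Olfr1240, chr2:89610154-89610403 on the minus strand for Olfr1247 and chr2:88980268-88980517 on the minus strand for Olfr1213.
Olfr1240: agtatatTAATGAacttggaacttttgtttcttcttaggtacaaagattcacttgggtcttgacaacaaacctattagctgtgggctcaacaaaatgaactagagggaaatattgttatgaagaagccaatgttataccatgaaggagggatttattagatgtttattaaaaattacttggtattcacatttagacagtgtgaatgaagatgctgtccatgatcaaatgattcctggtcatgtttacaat
Olfr1247: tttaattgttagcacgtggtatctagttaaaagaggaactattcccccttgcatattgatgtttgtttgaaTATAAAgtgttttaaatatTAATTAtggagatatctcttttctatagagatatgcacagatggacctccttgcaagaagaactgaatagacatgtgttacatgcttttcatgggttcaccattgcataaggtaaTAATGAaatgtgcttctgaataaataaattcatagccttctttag
Olfr1213: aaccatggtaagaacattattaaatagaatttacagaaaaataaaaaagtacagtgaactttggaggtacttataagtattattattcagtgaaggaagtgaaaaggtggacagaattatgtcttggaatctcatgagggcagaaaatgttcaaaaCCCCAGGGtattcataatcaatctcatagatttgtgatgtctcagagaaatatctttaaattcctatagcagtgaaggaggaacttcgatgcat
Olfr1247 was at 21.0 FPKM in mOSN against 2.68 in GBC and 0.0849 in HBC. Its window held TAATTA once, TAATGA once and also TATAAA once, that of Olfr1240 held TAATGA alone, and that of Olfr1213 held CCCNNGGG alone. No searched motif was in all 3 windows.

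Over the 60 windows, CCCNNGGG was in 8.33%, TAATTA in 28.3%, TAATGA in 30.0% and TATAAA in 43.3%. In 202 windows of the same length from receptor genes that are not members these shares were 6.93%, 14.4%, 31.7% and 27.7%. In 30936 such windows over all genes they were 12.2%, 4.43%, 8.19% and 11.4%. The base composition moved with these shares, with a median GC content of 32.0% in the members' windows, 37.6% in other receptors and 52.8% in all genes, and its part in them was not tested. A match to these letters is a description and not a binding site.

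A pair of neighbouring receptors had nearly the same upstream sequence and yet differed in deposited level. Olfr1034 (chr2:86046194-86046443 on the plus strand) and Olfr1036 (chr2:86074454-86074703 on the plus strand) had windows with 92.8% identity, against a median of 53.2% over pairs of members of different or unnamed families.
Olfr1034: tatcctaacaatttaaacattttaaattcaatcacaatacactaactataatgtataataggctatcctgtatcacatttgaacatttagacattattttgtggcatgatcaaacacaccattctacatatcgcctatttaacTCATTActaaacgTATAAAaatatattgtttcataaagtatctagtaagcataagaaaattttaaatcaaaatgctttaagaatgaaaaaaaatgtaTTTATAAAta
Olfr1036: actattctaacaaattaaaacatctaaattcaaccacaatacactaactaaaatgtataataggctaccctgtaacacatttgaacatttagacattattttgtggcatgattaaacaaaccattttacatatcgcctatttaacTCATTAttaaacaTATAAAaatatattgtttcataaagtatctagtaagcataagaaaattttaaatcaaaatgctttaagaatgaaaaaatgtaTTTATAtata
Olfr1034 was at 10.9 FPKM in mOSN (9.32 to 12.5) and 1.93 FPKM in GBC, and was listed at 0 in HBC. Olfr1036 was at 7.03 FPKM in mOSN (5.74 to 8.31) and 0.521 FPKM in GBC, and was listed at 0 in HBC. Olfr1034 was the higher of the pair in both GBC and mOSN, and its deposited intervals lay apart from those of Olfr1036 in both libraries. Those intervals cover counting error only. How reads that fit both genes were assigned is not stated, so the difference is uncertain.

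Olfr1080 (chr2:86558139-86558388 on the minus strand) and Olfr1082 (chr2:86598810-86599059 on the minus strand), of family MOR192, formed the next pair in order of identity, at 91.2%, and the pair after it stood at 63.6%. They show the same motifs in the same order, TTTATA then TCATTA.
Olfr1080: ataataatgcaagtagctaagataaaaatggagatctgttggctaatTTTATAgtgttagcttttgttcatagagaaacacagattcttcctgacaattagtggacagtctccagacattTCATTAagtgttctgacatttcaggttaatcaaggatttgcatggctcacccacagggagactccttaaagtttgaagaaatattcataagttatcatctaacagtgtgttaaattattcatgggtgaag
Olfr1082: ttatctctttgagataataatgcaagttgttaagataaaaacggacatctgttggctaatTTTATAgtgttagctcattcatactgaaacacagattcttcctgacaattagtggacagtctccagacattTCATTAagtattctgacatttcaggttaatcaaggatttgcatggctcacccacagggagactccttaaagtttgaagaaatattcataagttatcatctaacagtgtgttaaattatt
Olfr1080 was at 3.47 FPKM in mOSN (2.49 to 4.45) and 0.0840 FPKM in GBC, and was listed at 0 in HBC. Olfr1082 was at 2.20 FPKM in mOSN (1.42 to 2.99), 0.0837 FPKM in GBC and 0.0438 FPKM in HBC, and its mOSN interval overlapped that of Olfr1080. Both receptors were thus near 0 in GBC and detected in neurons at levels that counting error does not separate.

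The window of Olfr1164, a member higher in GBC than in mOSN, is shown for contrast (chr2:88093967-88094216 on the minus strand). Its TATAAA and TAATGA matches overlap.
Olfr1164: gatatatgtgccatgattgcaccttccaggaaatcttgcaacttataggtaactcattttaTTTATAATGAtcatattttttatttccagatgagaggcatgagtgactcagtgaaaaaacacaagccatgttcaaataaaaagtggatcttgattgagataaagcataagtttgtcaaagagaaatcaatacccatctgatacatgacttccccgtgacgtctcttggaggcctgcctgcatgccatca
The motifs found there, TAATGA and TATAAA, were also in the windows of Olfr1034, Olfr1036, Olfr1080, Olfr1082 and Olfr1247, all of which were higher in mOSN.

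Genes for receptor choice, trafficking and signalling gave the wider setting, from a list of 30 genes that were all measured. Of these, 13 were at least 2-fold higher in mOSN than in GBC, where the background was 22.4% of measured genes, and 2 at least 2-fold lower, where it was 10.3%, with a median log2 ratio of 0.69 against 0.24 over all genes. The regulators in this list followed several orders. Lhx2, a homeodomain factor bound at receptor enhancers, was at 110 FPKM in mOSN against 170 in GBC and 2.50 in HBC. Ldb1, its cofactor, was at 36.3 FPKM in mOSN against 80.9 in GBC and 23.3 in HBC, and was one of the lower genes with Ehmt1, a histone methyltransferase gene, at a log2 ratio of -1.35. Kdm1a, a histone demethylase needed for receptor activation, was at 18.1 FPKM in mOSN against 32.6 in GBC and 8.55 in HBC. Ebf3, an Ebf factor, was at 158 FPKM in mOSN against 104 in GBC and 3.27 in HBC, and its relative Ebf4 at 106 FPKM in mOSN against 54.9 in GBC and 2.47 in HBC. Cbx5, which encodes a heterochromatin protein, was at 6.77 FPKM in mOSN against 6.87 in GBC and 6.73 in HBC. Lbr, which encodes a receptor for lamin at the nuclear envelope, was at 5.03 FPKM in mOSN against 4.76 in GBC and 11.6 in HBC. Rtp1, a chaperone that brings receptors to the membrane, was at 428 FPKM in mOSN against 108 in GBC and 3.16 in HBC. Adcy3, the adenylyl cyclase of the cilia, was at 547 FPKM in mOSN against 32.8 in GBC and 11.5 in HBC. Ric8b, an exchange factor for the olfactory G protein, was at 437 FPKM in mOSN against 40.0 in GBC and 8.87 in HBC. Of the genes named here, Rtp1, Adcy3, Ric8b, Ebf3 and Ebf4 had the order of the summed receptor level on the deposited FPKM scale. Lhx2, Ldb1, Kdm1a, Ehmt1, Ebf1, Ebf2, Emx2 and Trim66 were highest in GBC and Lbr in HBC. The deposited intervals of Cbx5 overlapped among all 3 libraries.

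Against other chromosomes, the members stood near the middle in neurons. The median mOSN level was 3.65 FPKM on chromosome 2, 3.95 on chromosome 7, 2.41 on chromosome 9, 3.51 on chromosome 11 and 7.68 on chromosome 14. In GBC the median was 0.629 FPKM on chromosome 2, 0.803 on chromosome 7, 0.595 on chromosome 9, 1.22 on chromosome 11 and 1.32 on chromosome 14. The ratio of summed FPKM between mOSN and GBC was 5.91 for chromosome 2, 4.37 for chromosome 7, 4.61 for chromosome 9, 2.79 for chromosome 11 and 6.63 for chromosome 14. The members accordingly made up 22.0% of the HBC receptor signal (summed FPKM), 20.2% of that of GBC and 26.3% of that of mOSN. With 1 library per population this difference could not be tested.

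**Figure D5:**
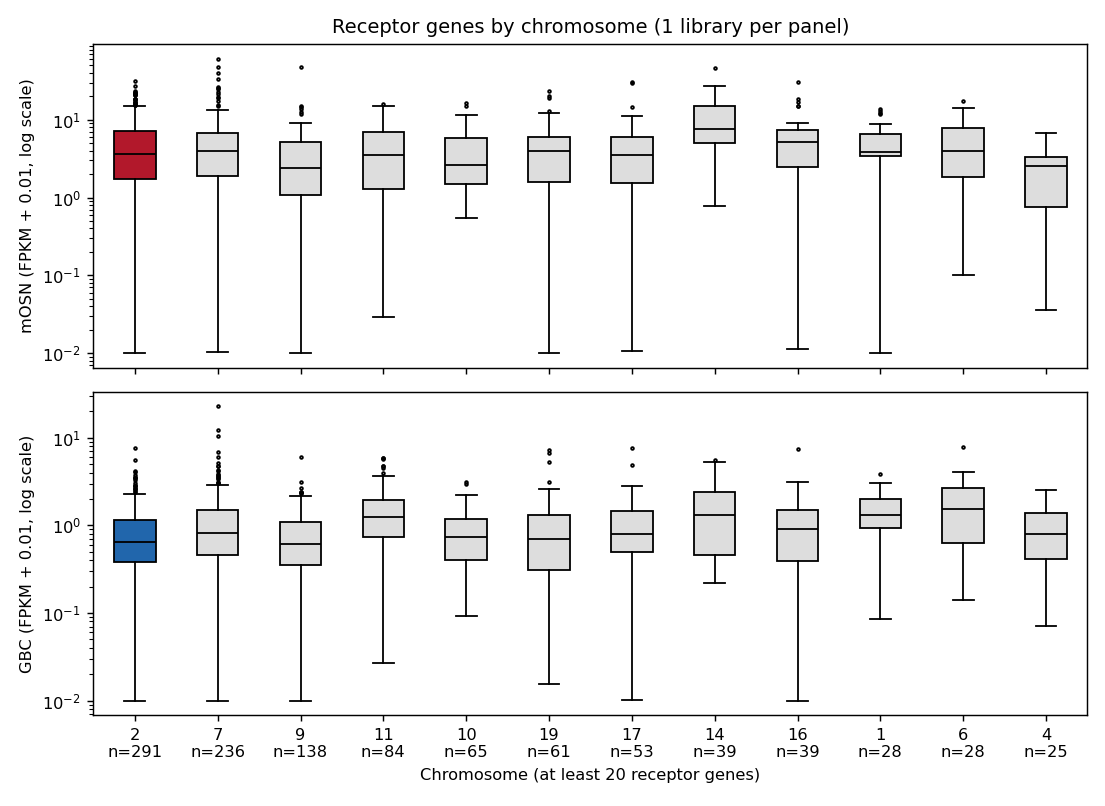
FPKM plus 0.01 (log scale) of receptor genes in mOSN (top) and GBC (bottom) for the 12 chromosomes with at least 20 receptor genes, with chromosome 2 in colour. Boxes give the quartiles with the median as a line, whiskers reach 1.5 interquartile ranges and points are genes beyond. The box of chromosome 2 overlaps most others in both libraries, and chromosome 14 has the highest box in mOSN.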

How the data were processed

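Members, gene lists, families, clusters and the naming rule were chosen with earlier results of these data known. The authors deposited 1 table per library of FPKM per gene with a lower and an upper bound, per the file headers. Bowtie, TopHat, Cufflinks and build mm9 are named without versions in the submitters' processing notes. For the annotation, the options and the handling of reads that map to several genes, nothing is given in the sources used here. The libraries were amplified for 16 PCR cycles, per the labels' protocols, and reads without molecular identifiers are not independent molecules, so intervals cover counting error only.

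From these tables, rows of 1 symbol were added up, starts were raised by 1, and implied fragments were computed as (2 FPKM/(upper bound - FPKM)) squared, since a bound of 2 standard errors of a count gives this number. All member rows had status OK. No test was run, since each group is 1 library. Genes were named by rule: the 3 highest mOSN members per cluster with its first and last gene, the 5 highest per library, and the 5 largest and smallest ratios at 5 FPKM or more, with neighbours of the clusters, families of at least 5 and members higher in GBC. The 3 samples of 5hmC and 3 of 5mC were not analysed here. Alternatives were pseudocounts of 0.1 and 5 FPKM, no filter, a 5 FPKM filter, a common sum, scaling by the median of ratios, only the highest row of a symbol, leaving out FAIL and LOWDATA rows, 1 conversion factor per gene, intervals that do not overlap, and other cluster gaps. The rule of a 4-fold difference and 5 FPKM was run on simulated data of 21909 genes with counting error only. It recovered 200 of 200 genes changed 8-fold for mOSN against GBC, with 11 false calls. The changed genes were drawn from those at 5 FPKM or more before the change, so this recovery followed from the setting. It does not show how the rule performs for the members, whose median in GBC was 0.629 FPKM. Scripts used Python 3.11.15 with pandas 2.3.3, numpy 2.4.6, scipy 1.17.1 and matplotlib 3.10.9.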

Additional observations from a re-analysis of the deposited data

How the results depend on the processing

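No result changed direction under any alternative that was run, and the 3 clusters were also found with gaps of 0.5 and 2 Mb, while a gap of 0.1 Mb gave 4. Low levels limit the rest, since a pseudocount of 5 FPKM and a filter at 5 FPKM exceed most members. The filter also lowers the number of members measured. Of the members at least 2-fold higher in mOSN than in GBC, 205 of 249 became 75 of 249 and 111 of 115 under these settings. The 5 lower ones became 0 and 0. Backgrounds over all genes under these settings are not given here. The 243 of 243 higher in mOSN than in HBC became 114 of 243 and 115 of 115. The 83 of 91 higher in GBC than in HBC became 1 of 91 and 2 of 2. The 73 members at 4-fold and 5 FPKM became 4 with a pseudocount of 5 FPKM and 47 with a common sum. The median log2 ratio of 1.68 between mOSN and GBC was 2.51 with a pseudocount of 0.1 FPKM, 0.72 with 5 FPKM, 1.53 with no filter and 2.18 with a filter at 5 FPKM. It was 1.45 with a common sum, 1.51 with median-of-ratios scaling and 1.87 with 1 conversion factor per gene. The common sum scaled mOSN against GBC by a log2 factor of -0.38 and median-of-ratios scaling by -0.18, before 1 FPKM was added to the values. With the common sum, median-of-ratios scaling and 1 conversion factor per gene, the summed FPKM was 17.7, 21.1 and 39.3 in HBC, 276.9, 232.7 and 328.2 in GBC, and 1261, 1212 and 1654 in mOSN. With 1 conversion factor per gene, 2 members reached 1 FPKM in HBC, where 0 did as deposited. The causes of these shifts were not tested beyond what each setting changes by construction. No paired analysis was possible because each group is 1 library.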
